A study of Mus musculus with 18 samples.

Results

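A group of 8 genes that mark hematopoietic stem cells (HSCs) or are known to act in their self-renewal was followed through the RNA sequencing of sorted mouse HSCs: Mecom, Hlf, Procr, Fgd5, Ctnnal1, Mllt3, Prdm16 and Pdzk1ip1. They were taken by symbol for their known roles, with no threshold on their values, but with earlier results of these data known. They are 8 of the 24421 genes in the count table. All 8 were present and all 8 passed the filter of a mean of at least 1 CPM (counts scaled to a fixed library size by the TMM method), as did 12808 genes in all.

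The study asked how HSCs change with age in Hoxb5-tri-mCherry mice on a C57BL/6J background, whose reporter follows the transcription factor gene Hoxb5. Bone marrow was enriched for c-Kit+ cells and double sorted into bulk-HSCs, the HSC fraction defined by surface antigens, and into its Hoxb5+ part (LT-HSCs, long-term) and Hoxb5- part (ST-HSCs, short-term). Each fraction was taken from young mice of 2 to 3 months and from aged mice of 23 to 25 months, with 3 libraries in each of the 6 groups and 18 libraries in all. LT-HSCs and ST-HSCs were thus set apart by 1 reporter, bulk-HSCs held cells of both kinds, and every group carried the reporter. The sources used here do not say how many animals, or of which sex, stood behind a library. Nor do they say whether the fractions of an age came from the same animals. The p-values thus measure only the spread between these samples. In such bulk samples fewer cells of a type and less RNA per cell cannot be told apart.

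HSCs keep themselves through divisions in which daughter cells stay stem cells, and a small set of nuclear regulators holds that state. Mecom and Prdm16 encode related zinc-finger regulators with a PR domain, Hlf encodes a bZIP transcription factor, and Mllt3 encodes a YEATS-domain protein that reads acylated histones and joins the super elongation complex. Other genes are known mainly as markers, used to find or report HSCs: Procr encodes the endothelial protein C receptor, Fgd5 an exchange factor for Cdc42, Ctnnal1 alpha-catulin, and Pdzk1ip1 the small membrane protein MAP17.

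In GENCODE M21 (GRCm38) the genes lie as follows, with the strand: Mecom at chr3:29951296-30548008 (minus), Hlf at chr11:90336536-90390895 (minus), Procr at chr2:155751117-155755471 (plus), Fgd5 at chr6:91978878-92076004 (plus), Ctnnal1 at chr4:56810935-56865188 (minus), Mllt3 at chr4:87769925-88033364 (minus), Prdm16 at chr4:154316125-154636873 (minus) and Pdzk1ip1 at chr4:115088708-115093899 (plus).

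The stretches just before the gene starts are shown for 5 of the genes, those whose values below moved most clearly with fraction or age and Hlf, whose values ran the other way. They are the 250 bases before the RefSeq start on GRCm38.p6, 5′ to 3′ on the gene's strand: Fgd5 at chr6:91978715-91978964 (plus strand), Mecom at chr3:30509760-30510009 (minus), Pdzk1ip1 at chr4:115088458-115088707 (plus), Procr at chr2:155750967-155751216 (plus) and Hlf at chr11:90390918-90391167 (minus). The Mecom start lies inside the longer gene model of the annotation, and the ends of the Fgd5 and Procr stretches lie inside theirs. Capitals mark matches to GATAA (GATA factors) and GGAAG (ETS factors), searched on both strands.
Fgd5: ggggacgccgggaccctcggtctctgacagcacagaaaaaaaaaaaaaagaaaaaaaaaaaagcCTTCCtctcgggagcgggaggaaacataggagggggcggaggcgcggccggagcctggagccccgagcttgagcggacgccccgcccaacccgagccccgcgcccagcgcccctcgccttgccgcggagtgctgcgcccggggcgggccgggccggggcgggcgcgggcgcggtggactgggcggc
Mecom: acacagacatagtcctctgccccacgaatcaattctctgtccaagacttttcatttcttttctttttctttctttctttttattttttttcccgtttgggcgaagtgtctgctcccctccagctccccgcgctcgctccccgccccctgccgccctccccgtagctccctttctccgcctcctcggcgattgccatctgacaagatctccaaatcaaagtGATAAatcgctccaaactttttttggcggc
Pdzk1ip1: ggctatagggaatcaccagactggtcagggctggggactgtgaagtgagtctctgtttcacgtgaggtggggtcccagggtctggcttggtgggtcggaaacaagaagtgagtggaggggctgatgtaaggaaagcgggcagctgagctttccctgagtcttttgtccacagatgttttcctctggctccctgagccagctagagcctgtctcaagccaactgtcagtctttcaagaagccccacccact
Procr: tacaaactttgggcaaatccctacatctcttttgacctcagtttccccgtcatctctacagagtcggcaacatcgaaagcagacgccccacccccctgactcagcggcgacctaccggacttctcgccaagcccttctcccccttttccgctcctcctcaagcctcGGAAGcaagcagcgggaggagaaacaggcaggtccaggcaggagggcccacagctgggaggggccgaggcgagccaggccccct
Hlf: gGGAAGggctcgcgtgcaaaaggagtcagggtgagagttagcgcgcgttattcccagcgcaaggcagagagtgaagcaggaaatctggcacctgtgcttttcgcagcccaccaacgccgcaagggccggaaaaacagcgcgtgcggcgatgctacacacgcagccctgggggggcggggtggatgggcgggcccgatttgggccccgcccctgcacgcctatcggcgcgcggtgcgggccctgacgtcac
All 8 genes had an entry among 27025 such stretches. GATAA was present in 1 of the 8 (Mecom) and in 23% of all stretches, and GGAAG in 3 of the 8 (Hlf, Procr and Fgd5) and in 63.6% of all. TTANNTAA, the palindrome that Hlf and its relatives are known to bind, was in 0 of the 8 and in 5.55% of all. CpG dinucleotides ranged from 3 in Pdzk1ip1 to 31 in Fgd5, with a median of 6 over all stretches. The GC box GGGCGG was found in 6 of the 8, all but Procr and Pdzk1ip1, against 32.9% of all. These are matches of letters and no more.

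Libraries held 16495048 to 22973844 counts, and each of the 8 genes had at least 661 of them in every library. Genes with at least 1 count numbered 11548 to 13876 in young and 13526 to 14133 in aged libraries, so this number moved with age. Hoxb5 itself was 8.20 to 40.3 CPM in young and 18.4 to 26 CPM in aged LT-HSCs, and at most 4.56 CPM in ST-HSCs. Kit was 1075.1 to 1569.9 CPM over all libraries and lower in LT-HSCs than in ST-HSCs without overlap. It was 1137.7 to 1286.0 against 1425.8 to 1496.2 CPM in the young and 1075.1 to 1319.0 against 1416.5 to 1480.9 in the aged. The progenitor marker Flt3 was 50.0 to 89.3 CPM in young ST-HSCs against 9.16 to 22.3 CPM in young LT-HSCs. In the aged, 15.7 to 25.2 CPM of Flt3 in ST-HSCs overlapped 3.88 to 18.3 in LT-HSCs. Endothelium also uses several of the 8 genes. Its 8 markers summed to 342.3 to 425.1 CPM in young LT-HSCs, 338.4 to 393.6 in young ST-HSCs, 380.7 to 460.5 in aged LT-HSCs and 335.4 to 380.8 in aged ST-HSCs, most of it Tie1, which HSCs also express. The defining endothelial gene Cdh5 was at 0 in all 18 libraries, a level below the 0.131 to 0.182 CPM that 3 counts allow. Another of the 8 markers, Kdr, was 14.7 to 37.4 CPM in young LT-HSCs against 5.15 to 10.7 in young ST-HSCs, and 29.1 to 46.3 against 14.1 to 16.2 in the aged, so that it moved with the gaps described below. Emcn ran the other way in the aged, with all LT-HSC libraries below the 20.1 to 31.7 CPM of ST-HSCs. In the young its groups overlapped. Tie1 and Pecam1 overlapped between LT-HSCs and ST-HSCs at both ages, as did the low Flt4, Plvap and Stab2. The part of these markers in the gaps was not tested.

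Levels can be compared between genes only per length, here as counts per kilobase of exon scaled to the same sum in every library. On that scale Hlf was highest, with a mean of 737.6 over the 18 libraries (range 564.1 to 1353.2), and stood at the 99.0th percentile of the 12270 tested genes with a known length. Pdzk1ip1 (mean 315.7) and Procr (285.9) followed. Fgd5 (128.9), Mecom (106.9) and Mllt3 (100) lay close together, and Prdm16 (59.3) and Ctnnal1 (30.7) were lowest, the last at the 47.6th percentile. With the longest transcript as length, Mecom and Mllt3 came before Fgd5.

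The genes differed in how steady they were. The standard deviation of log2(CPM + 0.5) within groups was 0.121 for Mecom, 0.14 for Fgd5 and 0.16 for Procr, a little below the medians of 0.157, 0.184 and 0.214 among tested genes within 0.5 log2 units of their levels. Mllt3 (0.425), Ctnnal1 (0.351) and Prdm16 (0.347) were less steady than such genes, whose medians were 0.164, 0.31 and 0.219. In Hlf the young libraries gave 0.325 and the aged ones 0.1, the young including 1 ST-HSC library described below.

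**Figure D1:**
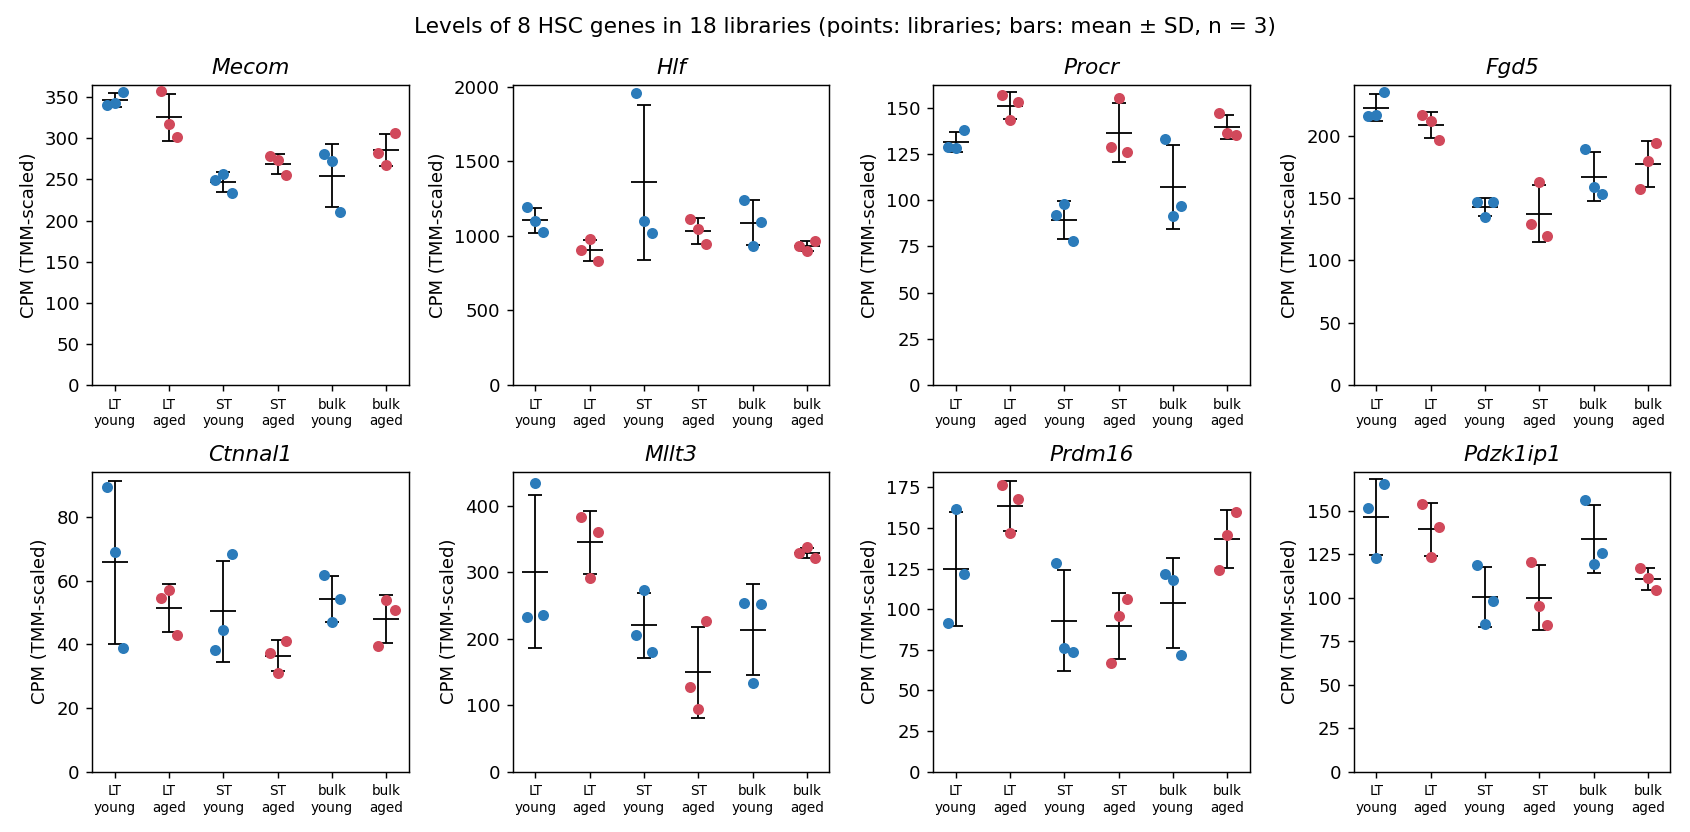
CPM (TMM-scaled, linear axis from 0) of the 8 genes in 18 libraries of young (blue) and aged (red) mice; points are libraries and bars are mean ± SD (n = 3). LT-HSC points of Mecom and Fgd5 lie above all ST-HSC points of the same age, aged Procr points lie above the young ones of the same fraction, and 1 young ST-HSC library stands at 1955 CPM for Hlf.

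Of the 8 genes, 7 had fitted levels in LT-HSCs above those in ST-HSCs at both ages, and Hlf was lower in both. Fgd5 and Mecom passed the test for the mean of the 2 ages, with LT-HSC levels 1.40 to 1.56 times those of ST-HSCs in the young and 1.21 to 1.52 times in the aged. The members' median log2 fold change was 0.48, against 0.00 over all tested genes, of which 50.5% were higher in LT-HSCs. The quasi-likelihood test of edgeR, with p-values adjusted by Benjamini and Hochberg's method over the 12808 genes, called 2 of the 8 genes for the mean of the 2 ages, beside 0.812% of all tested genes. In the young it called 1 of 8, Fgd5, beside 0.429%, and in the aged 0 of 8, beside 0.00781%, while 5 of 8 had an unadjusted p under 0.05 in the aged, as did 3.41% of all tested genes.

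Libraries told the same in another way. In the young, all 3 LT-HSC libraries were above all 3 ST-HSC libraries for 4 of the 8 genes (Mecom, Procr, Fgd5 and Pdzk1ip1), as for 6.04% of all tested genes. In the aged this held for 6 of the 8 (Mecom, Fgd5, Ctnnal1, Mllt3, Prdm16 and Pdzk1ip1), as for 8.67%. Mecom, Fgd5 and Pdzk1ip1, 3 of the 8, did so at both ages, as did 1.55% of all.

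Among the nuclear regulators, Mecom was 340.8, 342.7 and 355.7 CPM in the 3 young LT-HSC libraries and 249.7, 257.0 and 233.8 in young ST-HSCs. In the aged it was 357.5, 317.0 and 301.7 in LT-HSCs and 278.8, 273.3 and 255.1 in ST-HSCs. The groups did not overlap at either age, and the gap was the smaller in the aged. The log2 fold change was 0.49 ± 0.11 (SE) in the young (adjusted p = 0.0656, edgeR's quasi-likelihood test), 0.27 ± 0.11 in the aged (adjusted p = 1) and 0.38 ± 0.08 for their mean (adjusted p = 0.026). Leaving out 1 library kept this mean at 0.35 to 0.41, but the call held in only 5 of 12 such fits, with adjusted p from 0.0358 to 0.0873. It was lost when the library left out was 1 of the 3 aged ST-HSC libraries, aged LT-HSC replicate 1 or 2, young LT-HSC replicate 3 or young ST-HSC replicate 3.

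Prdm16, needed for HSC maintenance in mice, was 91.3, 161.5 and 121.4 CPM in young LT-HSCs and 128.6, 75.9 and 73.8 in young ST-HSCs, where the groups overlapped. Aged LT-HSCs had 176.2, 146.7 and 167.7 CPM and aged ST-HSCs 67.0, 96.1 and 106.1, without overlap. The mean log2 fold change of 0.65 ± 0.18 missed the threshold (adjusted p = 0.13, edgeR's quasi-likelihood test), and it passed without young ST-HSC replicate 1 (0.80, adjusted p = 0.0396).

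Mllt3 showed the widest fitted gap of the 8 genes, with 383.3, 291.5 and 359.6 CPM in aged LT-HSCs against 127.7, 94.2 and 225.9 in aged ST-HSCs. These groups did not overlap, and the ratio of means was 2.31. In the young, 232.6, 433.2 and 236.2 CPM in LT-HSCs overlapped 205.6, 273.7 and 180.0 in ST-HSCs. The log2 fold change was 1.21 ± 0.30 in the aged (adjusted p = 0.373, edgeR's quasi-likelihood test) and 0.83 ± 0.21 for the mean (adjusted p = 0.0879), so neither was called. Without aged ST-HSC replicate 3, the highest of its group, the mean was 1.04 and passed (adjusted p = 0.0227).

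Hlf ran the other way without passing the test. Young ST-HSCs had 1955, 1102.3 and 1016.7 CPM, against 1190.2, 1098.0 and 1024.9 in young LT-HSCs. The first ST-HSC library stood far above every other library of the series, whose range was 833.8 to 1237.8 CPM. In the aged, 902.7, 975.7 and 833.8 CPM in LT-HSCs overlapped 1111.6, 1043.5 and 942.8 in ST-HSCs. The mean log2 fold change was -0.24 ± 0.12 (adjusted p = 0.57, edgeR's quasi-likelihood test), and in the young it turned from -0.30 to 0.06 without ST-HSC replicate 1, so that 8 of 8 genes were then higher in young LT-HSCs.

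Of the genes of the cell cortex, Fgd5 was 215.7, 216.2 and 234.7 CPM in young LT-HSCs and 146.9, 134.6 and 146.9 in young ST-HSCs. Aged LT-HSCs had 216.6, 211.6 and 196.8 CPM and aged ST-HSCs 129.3, 163.0 and 119.9. At both ages every LT-HSC library was above every ST-HSC library, and the LT-HSC groups of the 2 ages overlapped each other. The log2 fold change was 0.64 ± 0.13 in the young (adjusted p = 0.0365, edgeR's quasi-likelihood test), 0.60 ± 0.13 in the aged (adjusted p = 0.268) and 0.62 ± 0.09 for the mean (adjusted p = 0.00241). The mean was called in 12 of 12 fits without 1 library (0.57 to 0.69). The call in the young alone was lost in 5 of 6 such fits, all but that without LT-HSC replicate 2, and in a fit of only these 6 libraries (adjusted p = 0.381).

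Ctnnal1, lowest of the 8 genes, was 89.3, 69.1 and 38.7 CPM in young LT-HSCs and 38.2, 44.6 and 68.2 in young ST-HSCs, with wide overlap. Aged LT-HSCs (54.5, 57.0 and 42.9 CPM) lay above aged ST-HSCs (37.3, 31.1 and 40.9 CPM). The mean log2 fold change was 0.44 ± 0.19 (adjusted p = 0.459, edgeR's quasi-likelihood test).

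At the membrane, Procr was 128.8, 128.2 and 137.9 CPM in young LT-HSCs and 91.8, 97.9 and 78.1 in young ST-HSCs, without overlap. In the aged, 157.1, 143.2 and 153.4 CPM in LT-HSCs overlapped 128.6, 155.2 and 126.3 in ST-HSCs. The log2 fold change was 0.56 ± 0.15 in the young and 0.15 ± 0.15 in the aged, neither called (adjusted p = 0.114 and 1, edgeR's quasi-likelihood test). Pdzk1ip1 was 151.7, 122.8 and 165.2 CPM in young LT-HSCs and 119.1, 84.9 and 98.1 in young ST-HSCs. Aged LT-HSCs had 153.9, 123.7 and 140.5 CPM and aged ST-HSCs 120.7, 95.3 and 84.5, so that neither age overlapped, by a narrow margin. Its mean log2 fold change of 0.51 ± 0.12 stood just outside the threshold (adjusted p = 0.0561, edgeR's quasi-likelihood test), and passed in 3 of 12 fits without 1 library.

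Exchanging the LT-HSC and ST-HSC labels within each age gave 400 arrangements and a smallest two-sided p of 0.005. Genes without overlap at both ages must reach that smallest p, so for them it only restates the lack of overlap. The exact permutation p, 8 tests without adjustment, was 0.005 for Mecom, Fgd5 and Pdzk1ip1, 0.015 for Procr, 0.02 for Mllt3 and Prdm16, 0.085 for Ctnnal1 and 0.175 for Hlf. Beside these differences, genes of progenitors and lineages were lower in LT-HSCs for 12 of 17 tested (median log2 fold change -0.37). Of all tested genes 0.812% were called, and of these 17 genes 3. Those were Cd34 (-0.91), Flt3 (-1.50) and the erythroid gene Car1, which had 0 counts in all 6 LT-HSC libraries and whose ST-HSC mean was at least 105.5-fold higher than the 3 counts per library taken as the limit. Car1 was detected in 5 of 6 ST-HSC libraries, at 14.5 to 29.2 CPM in the young and 0 to 40.6 in the aged. Whether such cells had a part in the gaps of the 8 genes was not tested.

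**Figure D2:**
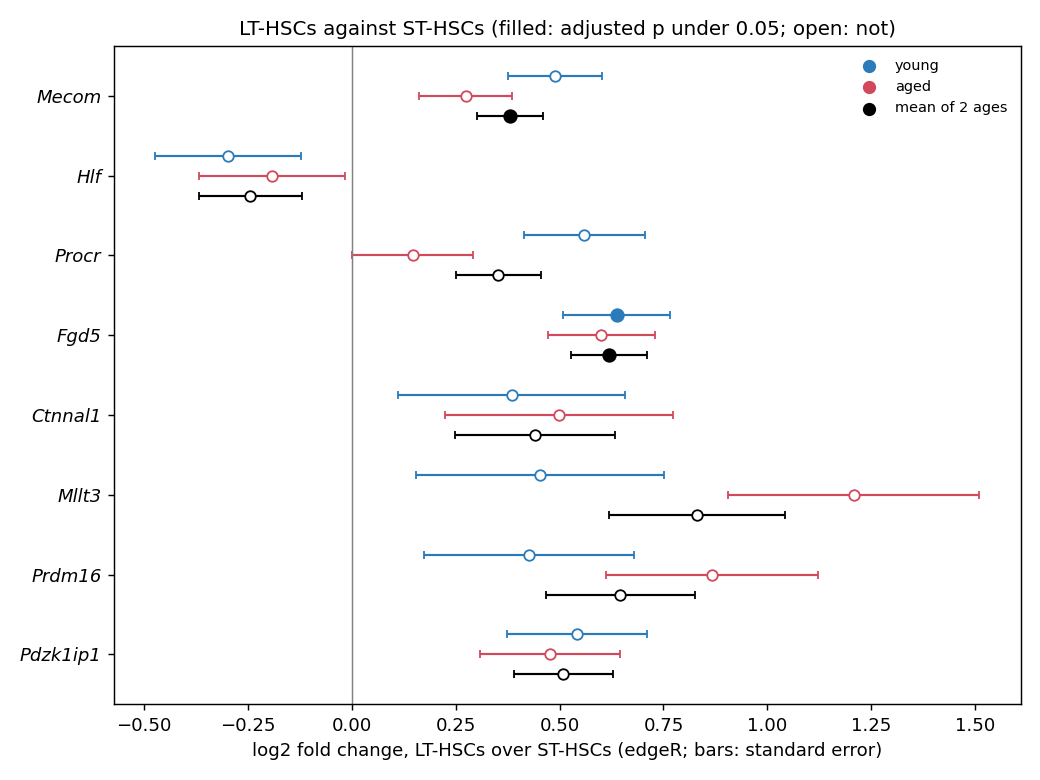
Log2 ratio (x axis) of LT-HSCs to ST-HSCs for each of the 8 genes, in young (blue), aged (red) and as the mean of the 2 ages (black), from edgeR; bars are standard errors, and filled points have an adjusted p under 0.05. Filled are Fgd5 in the young (0.64) and, for the mean, Fgd5 (0.62) and Mecom (0.38); only Hlf lies left of 0.

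With age, Procr rose, and it was the only one of the 8 genes to pass the test for the mean of the 3 fractions. Aged levels were 1.15 times young ones for LT-HSCs, 1.53 times for ST-HSCs and 1.3 times for bulk-HSCs. Hlf had lower means in aged libraries (0.819, 0.760 and 0.855 times) without passing, of which that in ST-HSCs rested on 1 young library, and Fgd5 and Mecom differed little between ages. In all, 1 of 8 genes was called for the mean, beside 6.75% of all tested genes, and the members' median log2 fold change was 0.02, against 0.04 over all. Within fractions 0 of 8 were called, beside 0.445% of all tested genes for LT-HSCs, 0.851% for ST-HSCs and 1.98% for bulk-HSCs. An unadjusted p under 0.05 was reached by 0 of 8 in LT-HSCs, 2 of 8 in ST-HSCs (Procr and Hlf) and 1 of 8 in bulk-HSCs (Procr), and by 8.81%, 9.67% and 13.3% of all tested genes, so that the count in bulk-HSCs was at the background.

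In bulk-HSCs Procr was 133.3, 91.3 and 96.8 CPM in the young and 147.1, 136.4 and 135.3 in the aged. Together with the LT-HSC and ST-HSC libraries given above, aged and young did not overlap in any of the 3 fractions. How many of all tested genes did the same was not counted, so this has no background. The log2 fold change was 0.40 ± 0.08 for the mean (adjusted p = 0.00663, edgeR's quasi-likelihood test), 0.61 ± 0.15 in ST-HSCs (adjusted p = 0.0562), 0.38 ± 0.15 in bulk-HSCs and 0.20 ± 0.15 in LT-HSCs. The mean was called in 18 of 18 fits without 1 library (0.36 to 0.46). It was 0.37 and no longer called (adjusted p = 0.283) with the number of detected genes in the fit, a number that itself moved with age.

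Libraries that did not overlap between ages were found in LT-HSCs for 2 of the 8 genes, Procr (higher) and Hlf (lower), as for 16.1% of all tested genes. In ST-HSCs they were found for Procr alone, 1 of 8, as for 17.8%. In bulk-HSCs they were found for 4 of 8, Procr, Mllt3 and Prdm16 (higher) and Pdzk1ip1 (lower), as for 22.7%. In LT-HSCs and ST-HSCs the share of the 8 genes was thus near that of all genes.

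Bulk-HSCs gave 1237.8, 934.0 and 1093.6 CPM of Hlf in the young and 928.6, 896.7 and 965.4 in the aged, which overlapped. The mean log2 fold change of Hlf over the 3 fractions was -0.30 ± 0.10 (adjusted p = 0.0854, edgeR's quasi-likelihood test). In ST-HSCs alone it was -0.40 ± 0.18 and only -0.04 without young ST-HSC replicate 1 (exact permutation p with all 6 libraries 0.5). Without that library the mean was -0.18, and without replicate 3 or 2 of that group it passed (-0.36 and -0.35, adjusted p = 0.0224 and 0.0463). For Mllt3 in bulk-HSCs, 253.0, 134.1 and 252.5 CPM in the young stood below 328.5, 337.0 and 321.4 in the aged, while the ST-HSC groups overlapped. Its log2 fold change with age was 0.63 ± 0.30 in bulk-HSCs, 0.20 ± 0.30 in LT-HSCs and -0.56 ± 0.30 in ST-HSCs, none called. Fits without 1 library moved the ST-HSC value between -0.99 (without aged replicate 3) and -0.31 (without aged replicate 2), and the bulk-HSC value down to 0.38 (without young replicate 2).

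Fgd5 differed by -0.02 ± 0.07 for the mean of the 3 fractions, where the difference between LT-HSCs and ST-HSCs was 0.62 ± 0.09. Mecom differed by 0.07 ± 0.06 and Pdzk1ip1 by -0.12 ± 0.10. Ctnnal1 (-0.33 ± 0.16) and Prdm16 (0.27 ± 0.15) were less precise, and none of the 5 was called. The exact permutation test over 8000 arrangements, with ages exchanged within fractions, gave p = 0.00025 for Procr, the smallest it can give, and 0.00525 for Hlf. The p of Procr follows from its lack of overlap in all 3 fractions and only restates it. The other 6 genes had exact p from 0.0798 (Ctnnal1) to 0.707 (Fgd5), all 8 without adjustment. With 3 libraries against 3, a single fraction cannot give an exact p below 0.1.

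**Figure D3:**
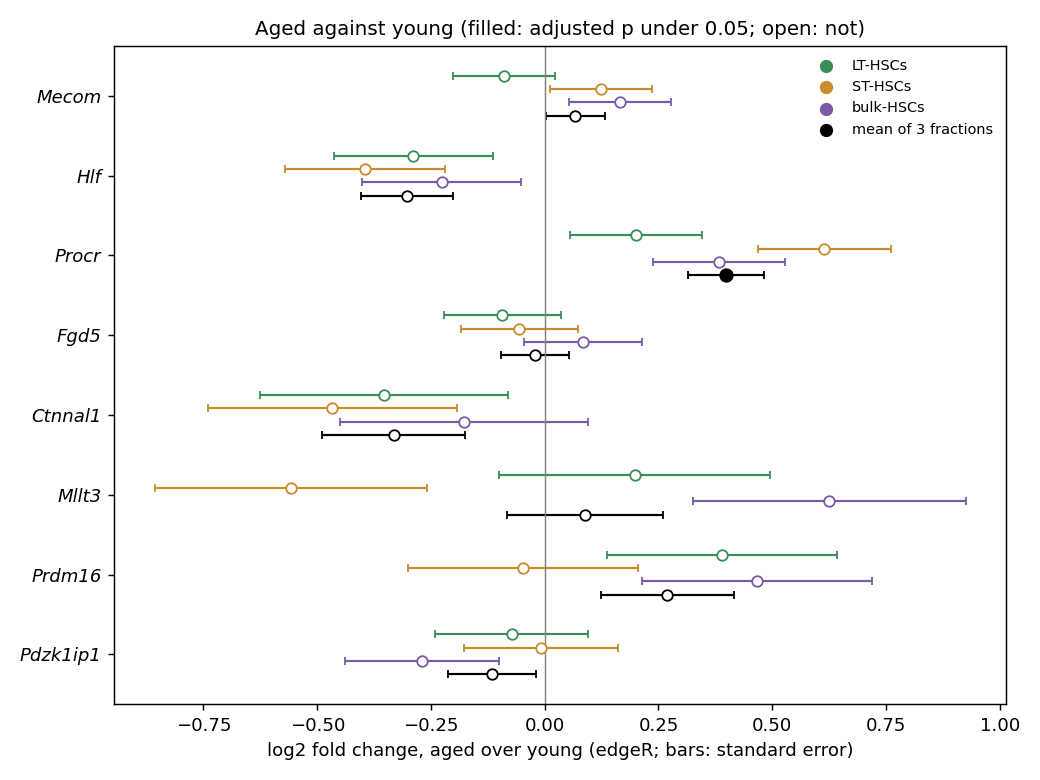
Log2 fold change (x axis) of aged over young for each of the 8 genes in LT-HSCs (green), ST-HSCs (ochre), bulk-HSCs (purple) and as the mean of the 3 fractions (black), from edgeR; bars are standard errors, and filled points have an adjusted p under 0.05. The only filled point is Procr for the mean (0.40), and Mllt3 lies on opposite sides of 0 in ST-HSCs (-0.56) and bulk-HSCs (0.63).

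The difference of the age effects between fractions was tested for each gene, and 0 of 8 passed in any pair of fractions. Beside this stood 0.0% of all tested genes for LT-HSCs minus ST-HSCs, 0.00781% for LT-HSCs minus bulk-HSCs and 0.0625% for ST-HSCs minus bulk-HSCs. The smallest unadjusted p was that of Mllt3 for ST-HSCs minus bulk-HSCs (-1.18 ± 0.42, adjusted p = 0.745, edgeR's quasi-likelihood test). Procr differed by -0.41 ± 0.21 for LT-HSCs minus ST-HSCs (adjusted p = 1). The comparisons of age share no libraries between fractions, but the comparisons of fractions share libraries with those of age.

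Bulk-HSCs hold LT-HSCs and ST-HSCs, and their mean lay between both for 6 of the 8 genes in the young and for 8 of 8 in the aged. In the young, the mean of 6 genes was nearer to that of ST-HSCs. In the aged it was nearer to that of LT-HSCs for 5 genes, Hlf, Fgd5, Ctnnal1, Mllt3 and Prdm16. Mllt3 gave the clearest case, with aged means of 344.8 ± 47.6 CPM (SD, n = 3) in LT-HSCs, 328.9 ± 7.81 in bulk-HSCs and 149.3 ± 68.5 in ST-HSCs. The aged ST-HSC and bulk-HSC libraries of Mllt3 did not overlap, nor did those of Prdm16. Neither this nor the position of bulk-HSCs was counted over all tested genes, so these counts have no background.

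None of the 8 genes passed the test in a comparison with bulk-HSCs. In the young the background was 0.273% of all tested genes for LT-HSCs against bulk-HSCs and 0.164% for ST-HSCs against bulk-HSCs, and in the aged 0.0% for both. An unadjusted p under 0.05 was reached by Mecom (0.45 ± 0.11, adjusted p = 0.115) and Fgd5 (0.41 ± 0.13, adjusted p = 0.206) for young LT-HSCs against bulk-HSCs, and by Pdzk1ip1 (-0.41 ± 0.17) for young ST-HSCs against bulk-HSCs, by edgeR's quasi-likelihood test. For aged ST-HSCs against bulk-HSCs it was reached by Mllt3 (-1.14 ± 0.30), Prdm16 (-0.68 ± 0.25) and Fgd5 (-0.37 ± 0.13), and for aged LT-HSCs against bulk-HSCs by 0 of 8. Of all tested genes 11.5%, 9.63%, 2.7% and 3.29% reached it in these 4 comparisons, in the order given.

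**Figure D4:**
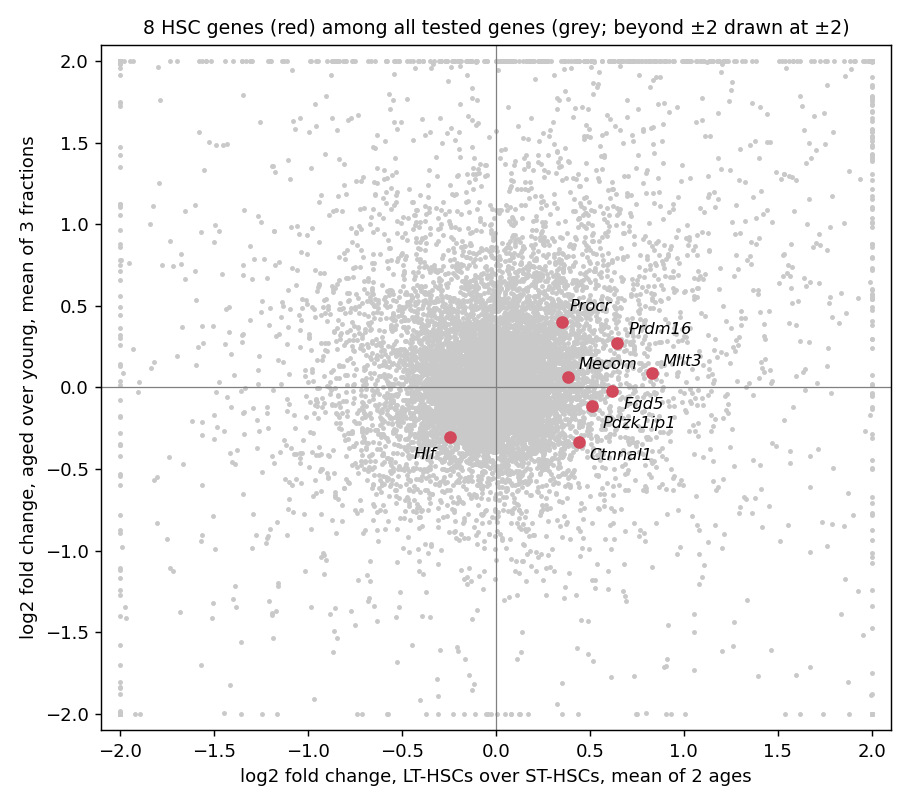
Log2 ratio of LT-HSCs to ST-HSCs (x axis, mean of 2 ages) against that of aged over young (y axis, mean of 3 fractions), from edgeR, for 12808 tested genes (grey, values beyond ±2 drawn at ±2) and the 8 genes (red). Of the red points, 7 lie right of 0 on x, from 0.35 (Procr) to 0.83 (Mllt3), while on y they lie on both sides of 0, from -0.33 (Ctnnal1) to 0.40 (Procr); the axes share libraries.

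The order of the 6 groups differed from gene to gene. For Fgd5 it ran from young LT-HSCs (222.2 ± 10.9 CPM, SD, n = 3) and aged LT-HSCs (208.3 ± 10.3) through aged bulk-HSCs (177.2 ± 18.7) and young bulk-HSCs (167.2 ± 19.4) to young ST-HSCs (142.8 ± 7.08) and aged ST-HSCs (137.4 ± 22.7). Its order thus followed the fraction, and only the steps between aged LT-HSCs and aged bulk-HSCs and between young bulk-HSCs and young ST-HSCs were free of overlap. For Procr the 3 aged groups came first, at 151.2 ± 7.17 CPM in LT-HSCs, 139.6 ± 6.51 in bulk-HSCs and 136.7 ± 16.1 in ST-HSCs. The young followed at 131.6 ± 5.43, 107.1 ± 22.8 and 89.3 ± 10.1 in the same order, and no pair of neighbours in this row was free of overlap. For Mecom, young (346.4 ± 8.14 CPM) and aged LT-HSCs (325.4 ± 28.9) led and young ST-HSCs (246.8 ± 11.8) were last, with every neighbouring pair overlapping.

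Lists of genes that work with the 8 were described by counts. For age over the 3 fractions, 6.75% of all tested genes were called and 54.7% had higher values in aged libraries. For LT-HSCs against ST-HSCs, mean of the 2 ages, 0.812% were called and 50.5% had higher values in LT-HSCs. The counts below, and those of the other lists, stand beside these shares. Among reported targets of Mecom, the integrin gene Itga6 (0.80 ± 0.09) and Gata2 (0.29 ± 0.06), an HSC transcription factor, rose with age for the mean of the 3 fractions, and Itga6 was also called within each fraction (LT-HSCs 0.81, ST-HSCs 0.72, bulk-HSCs 0.89). Neither was called between LT-HSCs and ST-HSCs. Of the 14 relatives and co-repressors of Mecom and Prdm16, 0 were called for age or fraction. The 2 with the smallest p for age were Hdac1 (-0.22, adjusted p = 0.196) and Ehmt1 (-0.23, adjusted p = 0.204).

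Procr binds protein C, and of 7 tested genes of the protein C pathway 6 had higher values in aged libraries (median 0.87) with 3 called. F2rl3, a thrombin receptor, rose by 0.87 ± 0.11 (adjusted p = 8.52e-05, edgeR's quasi-likelihood test), from 41.0 to 65.3 CPM over the young libraries to 77.7 to 126.7 over the aged. Thbd, thrombomodulin, the partner that lets thrombin activate protein C, rose by 1.45 ± 0.26 (adjusted p = 0.00195), and Pros1, the cofactor protein S, by 0.99 ± 0.26 (adjusted p = 0.0277). Within fractions F2rl3 was called in LT-HSCs (1.10) and bulk-HSCs (0.79) and Thbd in bulk-HSCs (1.86). Between LT-HSCs and ST-HSCs 0 of the 7 were called. The summed level of 6 megakaryocyte markers, mostly Itga2b, was 76.5 to 110.1 CPM in young and 111.2 to 177.6 in aged LT-HSCs. It was 81.0 to 112.6 against 149.3 to 177.0 in ST-HSCs and 107.0 to 159.2 against 146.6 to 156.6 in bulk-HSCs. Pf4, Ppbp, Gp9 and Treml1 overlapped between ages in every fraction. Only Itga2b in ST-HSCs (64.5 to 78.3 against 106.1 to 139.2 CPM) and the low Gp1bb in LT-HSCs (0.0 to 1.57 against 2.29 to 7.45) did not. The part of these markers in the rise of the protein C pathway genes was not tested.

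Among 15 relatives of Hlf and clock genes, 2 rose and 2 fell with age. The period genes Per1 (-0.75 ± 0.13, adjusted p = 0.00103, edgeR's quasi-likelihood test) and Per2 (-0.90 ± 0.20) fell, and Per1 was also called in bulk-HSCs (-0.96). The repressor gene Nr1d2 rose (0.53 ± 0.15), and Bhlhe41 had 0 counts in all 9 young libraries, was detected in 8 of 9 aged ones and was at least 18.3-fold higher there than the 3 counts per library taken as the limit. The hour of day at which marrow was taken is not given in the sources used here. Between LT-HSCs and ST-HSCs 0 of the 15 were called.

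In the list around Fgd5 and Cdc42, Cdc42bpb, a kinase bound by Cdc42, and Fgd4, a relative of Fgd5, rose with age (0.54 ± 0.13 and 0.82 ± 0.22), 2 of 15 tested, and Cdc42bpb was also called in bulk-HSCs (0.95). Arhgdib was lower in LT-HSCs for the mean of the 2 ages (-0.36 ± 0.07, adjusted p = 0.0258, edgeR's quasi-likelihood test), 1 of 15.

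Of 17 tested genes of the super elongation and Dot1l complexes that Mllt3 joins, only Kmt2a was called for age (-0.36 ± 0.08, adjusted p = 0.00778, edgeR's quasi-likelihood test). Mllt1, the close relative of Mllt3, came next (-0.33 ± 0.10, adjusted p = 0.0609). Among 6 tested partners and neighbours of Pdzk1ip1, Slc9a3r1, a PDZ scaffold, fell with age (-0.43 ± 0.10, adjusted p = 0.0106), and Cmpk1 did not pass (0.40, adjusted p = 0.0818). Neither list had a call between LT-HSCs and ST-HSCs.

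A list of other HSC-enriched genes was drawn up with earlier results of these data known, and its difference from the 8 genes was not tested. Of its 59 genes 24 rose and 2 fell for the mean of the 3 fractions (median 0.29), led by Sdpr (2.05), Trim47 (1.09), Aldh1a1 (1.60), Gda (1.44) and Vldlr (2.44). Between LT-HSCs and ST-HSCs 49 of the 59 had higher values in LT-HSCs and 9 were called, all higher (median 0.33), among them Vwf (2.22), Neo1 (2.24), Slamf1 (1.08), Trim47 (0.66) and Sdpr (0.92). The 49 include the reporter gene Hoxb5, whose direction was set by the sort. Progenitor and lineage genes had 1 call up (Prtn3, 0.93) and 3 down with age (Cd34, -1.06, Flt3, -1.32, and Satb1, -1.62) of 17 tested. Proliferation genes were lower in LT-HSCs for 25 of 27, with 1 called (Mcm5, -0.81), and lower with age for 25 of 27, with 6 called, among them Mcm6 (-0.66), Mcm3 (-0.59), Mcm5 (-0.61) and Mki67 (-0.98), and 1, Ccnd1 (0.69), called higher.

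The genes most like each of the 8 were sought over the 18 libraries by Pearson's r of log2(CPM + 0.5). The libraries share 2 ages, 3 fractions and their depth, so r describes these 18 points only. For Fgd5 the 3 most alike were genes of the Hoxb cluster, Hoxb2 (r = 0.888), Hoxb8 (0.822) and Hoxb9 (0.816), the cluster that holds the reporter gene. Once group means were taken out, r was 0.718 for Hoxb2, -0.009 for Hoxb8 and 0.172 for Hoxb9. Hoxb9 was also among the 3 most like Mecom (0.817), with Kalrn (0.823) and Tns2 (0.809), and Hoxb8 among those most like Mllt3 (0.789), with Mpdz (0.765) and Snn (0.763).

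Procr was most like Amotl2 (r = 0.945), Evc2 (0.920) and Cyp4b1 (0.912). Amotl2, an angiomotin family gene, was 4.15 ± 2.14 CPM (SD, n = 3) in young ST-HSCs and 72.0 ± 5.78 in aged LT-HSCs, the same ends of the order as Procr at a wider range. For Hlf the likeness to Arl6ip1 (0.865), Amz2 (0.826) and Gm15800 (0.823) rested on young ST-HSC replicate 1, where Arl6ip1 was 1999.3 CPM against 127.3 to 193.5 in the other 17. Without it r was 0.472, 0.651 and 0.556. Ctnnal1 was most like Chd9 (0.806), Fbxl17 (0.759) and Bmpr2 (0.749), Prdm16 like Ptpru (0.782), Arhgef7 (0.771) and Limch1 (0.768), and Pdzk1ip1 like Tbc1d22a (0.809), Jam3 (0.800) and Arhgef5 (0.782).

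Among the 28 pairs of the 8 genes the median r was 0.346, and 0.196 once group means were taken out. The highest was Mecom with Fgd5 (0.801), then Fgd5 with Pdzk1ip1 (0.730) and Mecom with Procr (0.662). Hlf had r below 0 with 6 of the other 7, and the lowest was that with Procr (-0.422). Within groups Mecom and Fgd5 still gave 0.470, whereas Fgd5 and Mllt3 turned from 0.490 to -0.394.

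**Figure D5:**
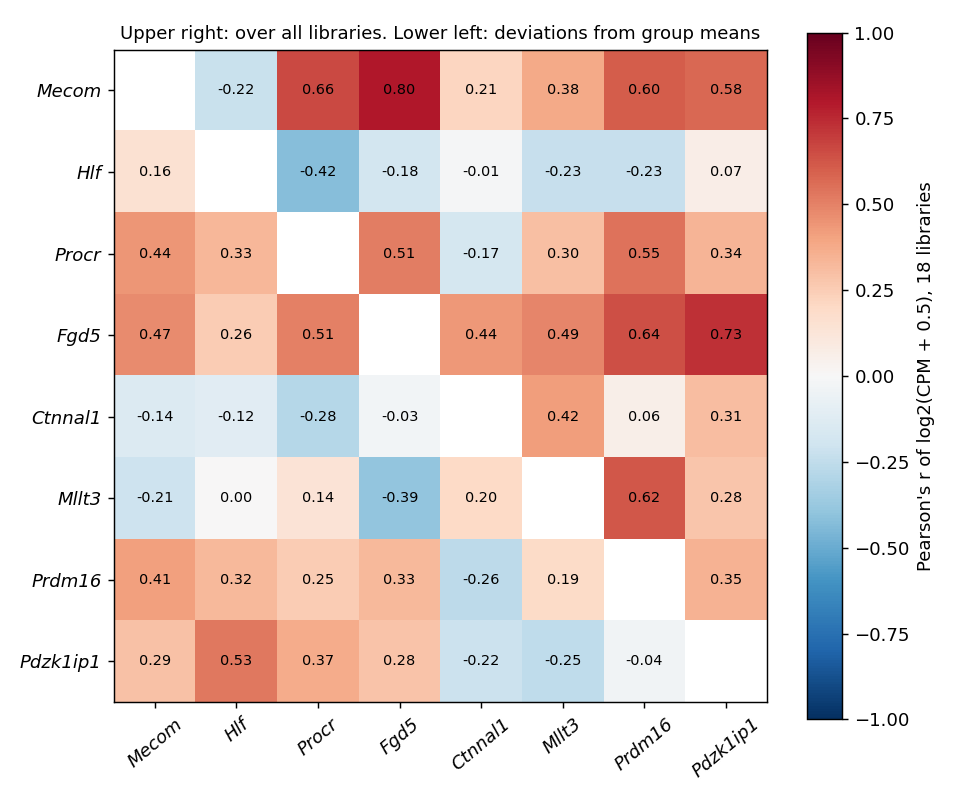
Pearson's r of log2(CPM + 0.5) between the 8 genes (rows and columns) over 18 libraries, upper right, and of deviations from group means, lower left; the color scale runs from -1 to 1. Hlf has negative values with 6 of the 7 others in the upper right, and the highest cell is Mecom with Fgd5 (0.80).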

How the data were processed

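Total RNA of sorted HSCs was made into ribosomal RNA-depleted libraries with a KAPA RNA HyperPrep kit with RiboErase. The deposited values are gene counts from the authors, who aligned reads to mm10 with HISAT2 and quantified genes with StringTie 1.3.4d, with SAMtools 1.7 also named in the submitters' processing notes; the annotation and the strand setting of the counting are not given in the sources used here. Without strand, reads of Mecom cannot be told from those of its antisense gene Mecomos (81 shared exon bases), nor those of Prdm16 from B230104I21Rik (109). Columns of all 18 libraries were used as counts. Genes with a mean of at least 1 CPM after TMM scaling were tested (12808 of 24421) with edgeR 4.0.16 (R 4.3.3), glmQLFit and glmQLFTest, 1 mean per group, 12 residual degrees of freedom, Benjamini-Hochberg adjustment over all tested genes and a threshold of 0.05. Replicates were taken as the labels number them. Alternatives were other scalings and filters, DESeq2 1.42.0, limma-voom 3.58.1, a replicate block, detected genes as a covariate, only the groups compared, and each library left out. Exact permutation tests (two-sided, log2(CPM + 0.5)) and tables were computed in Python with numpy and pandas; the exact test of fractions was added after seeing the data. The scripts were tested on simulated data. Gene positions and lengths are from GENCODE M21 (GRCm38), in which 95.5% of symbols matched once, and start-site sequences from RefSeq (GRCm38.p6). Depth limits detection to 0.131 to 0.182 CPM at 3 counts, which covers counting error only. The 8 genes and the lists were chosen with earlier results of these data known. Named beside the 8 genes were, per list, every gene called where at most 5 were called, otherwise the 5 with the smallest p, the 2 with the smallest p for age (mean of 3 fractions), and the 3 genes most like each of the 8. Results of some listed genes are not reported here.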

Additional observations from a re-analysis of the deposited data

How the results depend on the processing

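Of the 8 genes, the number called changed with the setting, and so did the number of all tested genes called, given in brackets with that of the quasi-likelihood test second. DESeq2 called 1 for age in ST-HSCs (448, 109), 2 for age over the 3 fractions (1494, 864), 4 between young LT-HSCs and ST-HSCs (387, 55), 2 between young LT-HSCs and bulk-HSCs (438, 35), 1 between aged LT-HSCs and ST-HSCs (55, 1) and 6 for the mean of the 2 ages (394, 104). With limma-voom these were 2 for age over the 3 fractions (1067, 864), 0 between young (7, 55) and 3 between aged LT-HSCs and ST-HSCs (66, 1), and 1 between aged ST-HSCs and bulk-HSCs (24, 0). A minimum of 10 counts in every library gave 1 for age in ST-HSCs (126, 109), detected genes as a covariate 0 for age over the 3 fractions (153, 864), and a fit of only the groups compared 0 between young LT-HSCs and ST-HSCs (5, 55). The causes of these changes were not tested.

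With the replicate block 0 of 8 genes were called between young LT-HSCs and ST-HSCs (Fgd5, adjusted p = 0.0532 by edgeR) and 3 for the mean of the 2 ages, where Pdzk1ip1 was added (adjusted p = 0.0176). The number of all tested genes called with the block is not given here, so these counts have no background. Of 18 libraries, 11 correlated best with their own number. Between same-numbered LT-HSC and ST-HSC libraries, r of the deviations was 0.0155 to 0.135 in the young and 0.042 to 0.0846 in the aged. Between either and bulk-HSCs of the same age it was -0.0432 to 0.0444. The block also joins young and aged libraries by number, which are of different mice, so it cannot decide whether fractions of an age were paired. The numbers were not taken as pairs.

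Leaving out 1 library gave 0 to 1 called for age in bulk-HSCs (Procr, adjusted p = 0.0401 by edgeR, without young bulk-HSC replicate 1), 1 to 2 for the mean of the 3 fractions, 0 to 1 between young LT-HSCs and ST-HSCs and 1 to 4 for the mean of the 2 ages. How many of all tested genes were called in these fits is not given here, so a change in the count of the 8 has no background. Of the 24 genes named as most alike, 10 to 20 were kept, and Spearman's rank correlation kept 9. Of the 8 levels per length, 5 kept their rank with the longest transcript.

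Signs turned only for differences that were not called. With detected genes as a covariate, age over the 3 fractions was 0.01 for Fgd5, -0.19 for Mllt3, -0.0 for Prdm16 and 0.04 for Pdzk1ip1, age in LT-HSCs was -0.03 for Mllt3 and 0.08 for Pdzk1ip1, and age in ST-HSCs was 0.12 for Pdzk1ip1. Pdzk1ip1 was 0.01 in LT-HSCs and 0.02 in ST-HSCs with limma-voom, and 0.0 in ST-HSCs with library size scaling. Over fits without 1 library, age ran from -0.2 to 0.02 for Pdzk1ip1 in LT-HSCs, and in ST-HSCs from -0.2 to 0.03 for Fgd5, -0.19 to 0.26 for Prdm16 and -0.16 to 0.13 for Pdzk1ip1. Over the 3 fractions it ran from -0.07 to 0.01 for Fgd5 and -0.05 to 0.21 for Mllt3, and Hlf between young LT-HSCs and ST-HSCs from -0.46 to 0.06. With 3 libraries a group, the standard errors of Mllt3, Prdm16 and Ctnnal1 leave changes of 0.5 log2 units within a fraction undecided.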
